A study of Rattus norvegicus with 12 samples.

Results

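The myosin heavy and light chains of the rat left ventricle were followed through 6 genes, the heavy chains Myh6 and Myh7, the ventricular light chains Myl2 and Myl3 and the atrial light chains Myl4 and Myl7. Every probe set whose annotation named 1 gene, and that gene was a member, was taken, which gave 13 of the 8740 probe sets on the array and 6 of its 4736 genes. Of these 13 probe sets, 3 belonged to Myh6, 2 to Myh7, 3 to Myl2, 1 to Myl3, 2 to Myl4 and 2 to Myl7. A further probe set, X15939_r_at, was annotated to Myh7 and Myh6 together and was not used. A filter on low values kept 12 of the 13 and left out X51531cds_g_at of Myl4, whose values are given without the filter.

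Total RNA of the left ventricle was measured on 12 single-channel arrays. The exercised group held 6 samples, taken after 7 weeks on a treadmill, and the sedentary group held 6 samples. The arrays are named here by group and by the number in their title: exercised 1, 4, 5, 7, 8 and 9, and sedentary 13, 16, 17, 21, 23 and 24. Strain, sex, age and the running schedule are not given in the labels, and neither is whether each array stands for an animal of its own. The p-values therefore cover only the spread among these samples, part of which may be technical.

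Myosin heavy chain is the motor of the thick filament, and each motor carries an essential and a regulatory light chain on its lever arm. In the rodent heart Myh6 encodes the fast alpha heavy chain of the adult ventricle and Myh7 the slow beta heavy chain, which is the fetal form and is known to rise under pressure overload and low thyroid hormone. Myl3 and Myl2 encode the essential and the regulatory light chain of the ventricle, and Myl4 and Myl7 encode their atrial counterparts, which the fetal ventricle also uses.

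The windows around the RefSeq starts of Myl4 and Myl7 are shown because these 2 genes stood high on the same array. That of Myl3 is shown because it is the ventricular counterpart of Myl4. Each line covers 250 bases before and 50 bases after the RefSeq start, on the strand of the gene, in build GRCr8. Capitals mark matches to the motifs named after the lines.
Myl4, chr10:89975900-89976199, plus strand: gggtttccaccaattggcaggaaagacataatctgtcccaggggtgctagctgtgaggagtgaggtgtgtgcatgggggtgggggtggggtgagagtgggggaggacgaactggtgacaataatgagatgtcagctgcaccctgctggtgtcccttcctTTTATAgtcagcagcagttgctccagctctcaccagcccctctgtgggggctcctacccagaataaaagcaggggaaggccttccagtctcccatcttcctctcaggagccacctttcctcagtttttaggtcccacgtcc
Myl7, chr14:84996575-84996874, minus strand: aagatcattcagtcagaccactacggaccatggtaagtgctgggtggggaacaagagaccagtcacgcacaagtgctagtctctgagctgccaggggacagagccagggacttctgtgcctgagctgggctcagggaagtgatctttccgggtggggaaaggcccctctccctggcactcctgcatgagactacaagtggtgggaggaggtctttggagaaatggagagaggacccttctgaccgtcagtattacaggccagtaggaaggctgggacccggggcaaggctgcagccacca
Myl3, chr8:119616844-119617143, plus strand: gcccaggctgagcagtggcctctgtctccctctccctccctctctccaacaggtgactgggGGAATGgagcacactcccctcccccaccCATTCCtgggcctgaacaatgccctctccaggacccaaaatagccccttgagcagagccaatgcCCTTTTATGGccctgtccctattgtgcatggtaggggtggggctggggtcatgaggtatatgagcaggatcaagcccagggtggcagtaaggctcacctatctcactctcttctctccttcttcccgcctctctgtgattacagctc
The RefSeq promoter table held 5 of the 6 genes. Myl2 was the gene without an entry. 6 kinds of motif were searched on both strands, and no 2 matches overlapped. They were the TATA box TATAAA, present in 14.2% of 33469 windows of the same length, the MCAT element CATTCC (14.2%), the GATA site GATAA (26.5%), the thyroid receptor half-site AGGTCA (16.2%), the CArG box (1.64%) and the MEF2 site (3.29%). The Myl4 window held 1 match to TATAAA on its reverse strand, at position -91 from the RefSeq start. Only this exact spelling of the TATA box was searched, so a box of other letters would be missed. The Myl3 window held 2 MCAT elements, at -189 and -161, and 1 CArG box at -97. The Myl7 window held none of these letters. Of the heavy chains, the Myh6 window (chr15:32411648-32411947, minus strand) held 1 MCAT element at -23, and the Myh7 window (chr15:32438145-32438444, minus strand) held none. A match is a run of letters and not evidence of binding. Whether a RefSeq start is where transcription begins in the ventricle was not tested. The Myl7 and Myh7 windows may lie inside the gene rather than at its promoter. A window without a match therefore does not show that the promoter of the gene lacks the motif.

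No myosin chain probe set differed between exercised and sedentary ventricles at an adjusted p under 0.05. The test was limma on log2 intensity with a pseudocount of 363, with Benjamini-Hochberg adjustment over the 6555 probe sets that passed the filter. It called 21 of them, which is 0.32% of those tested, and 0 of the 12 myosin probe sets. At an unadjusted p under 0.05 the background was 9.26% of all probe sets higher and 6.91% lower in exercised ventricles, and 0 of the 12 myosin probe sets lay in either direction. The groups' values did not overlap for 2.07% of all probe sets and for 0 of the 12. A p above the threshold does not show that levels were equal, so the intervals are given with each gene.

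Among all arrays, sedentary 17 stood apart across the whole array. Its median correlation with the other arrays was 0.964, against 0.986 to 0.990 for the other 11. No myosin probe set was called when it was left out, beside 26 of all probe sets past the filter, or 0.397%. Array medians ran from 847 to 852 in exercised and from 840 to 875 in sedentary samples, and the highest value on each array was between 64883 and 64994. The ventricular markers, 8 of a list of 11, summed to 254255 to 267632 in exercised and 249101 to 274990 in sedentary arrays, and none of the 8 was at 0.

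The cardiac heavy chain Myh6 did not pass the test on any of its 3 probe sets. The brightest, rc_AA891522_f_at, had a lowest, median and highest intensity of 41025, 42983 and 45215 in exercised ventricles, against 42378, 43657 and 47221 in sedentary ventricles. The highest single value was that of sedentary 17, and the groups overlapped over most of their range. The log2 difference, exercised minus sedentary, was -0.04 ± 0.04 (SE), with a 95% interval of -0.11 to 0.04 and a limma adjusted p of 0.632. As a fold this is 0.975, with an interval of 0.923 to 1.03.

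The other Myh6 probe sets did not share one direction. Probe set rc_AI103920_f_at ran from 36870 over a median of 38374 to 39003 in exercised ventricles, and from 36326 over 37909 to 39411 in sedentary ventricles. Its log2 difference was 0.01 ± 0.03 (SE; limma adjusted p = 0.892). Its sign turned to -0.0027 without sedentary 24, so the difference has no settled sign. Probe set rc_AI104924_f_at was the most variable of the 3, at 22446, 27171 and 28294 (lowest, median, highest) in exercised and 25052, 28670 and 31643 in sedentary ventricles. Exercised 5 gave its lowest value and sedentary 24 its highest. Its log2 difference was -0.11 ± 0.07 (SE; limma adjusted p = 0.488).

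The beta heavy chain Myh7 did not pass the test either. Probe set X15939_f_at had a lowest, median and highest intensity of 49399, 51448 and 53323 in exercised ventricles, against 49093, 49862 and 51410 in sedentary ventricles. Of the exercised arrays, 4 of 6 lay above the sedentary mean, and the groups overlapped. The means were 51330 ± 1516 in exercised and 49938 ± 879 in sedentary ventricles (SD, n = 6 each). The log2 difference was 0.04 ± 0.03 (SE), with an interval of -0.02 to 0.10 and a limma adjusted p of 0.516.

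Probe set X15939_i_at, made from the same sequence record, was far more scattered. It ran from 18872 over 22190 to 30251 in exercised ventricles and from 17765 over 20278 to 26276 in sedentary ventricles. Its coefficient of variation was 21.3% in exercised and 14.8% in sedentary ventricles, against 2.95% and 1.76% for X15939_f_at. Exercised 5 and 8 were the highest, at 30251 and 29108, and the lowest was sedentary 17. The log2 difference was 0.14, with an interval of -0.13 to 0.41 and a limma adjusted p of 0.600. By the array's naming, probe sets ending in _f_at may match a family of related sequences. Myh6 and Myh7 are close relatives, so signal of one heavy chain on the other's probe sets cannot be told apart here.

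The ventricular light chains were as bright as the heavy chains and did not pass the test. Myl3, the essential light chain, had 1 probe set, X14812_at, at 43440, 45364 and 47320 (lowest, median, highest) in exercised and 42256, 44968 and 48036 in sedentary ventricles. Both ends of the sedentary range were the arrays 16 and 17, and the exercised values lay inside it. Its log2 difference was 0.0046 ± 0.04 (SE), with an interval of -0.07 to 0.08 and a limma adjusted p of 0.962. The sign turned when exercised 5 or sedentary 16, 23 or 24 was left out, and with 1 array left out the value stayed between -0.014 and 0.023.

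Myl2, the regulatory light chain, had 3 probe sets that did not behave alike. M11851_at was the tightest of all 13, at 39586, 40614 and 41303 (lowest, median, highest) in exercised and 38728, 39766 and 40811 in sedentary ventricles. Of the exercised arrays, 5 of 6 lay above the sedentary mean. Its log2 difference was 0.03 ± 0.03 (SE; limma adjusted p = 0.629).

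The other Myl2 probe sets, X07314cds_at and X07314cds_g_at, come from 1 sequence record and were both low on sedentary 24. X07314cds_at ran from 48593 over 54062 to 55684 in exercised ventricles, and in sedentary ventricles it was 38668 on array 24 and 52093 to 55482 on the other 5. X07314cds_g_at ran from 37215 over 42836 to 45488 in exercised ventricles, and in sedentary ventricles it was 19784 on array 24 and 42254 to 46847 on the other 5. M11851_at on the same array was 38743, close to the 38728 of sedentary 23. The log2 differences were 0.06 and 0.13 over all arrays (limma adjusted p = 0.714 and 0.713), and -0.02 and -0.06 without sedentary 24 (limma adjusted p = 0.849 and 0.590). On sedentary 24, 28 of the 6555 probe sets were lowest of all arrays by more than 0.5 log2, and X07314cds_g_at ranked 7th among them with a gap of 0.90.

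**Figure D1:**
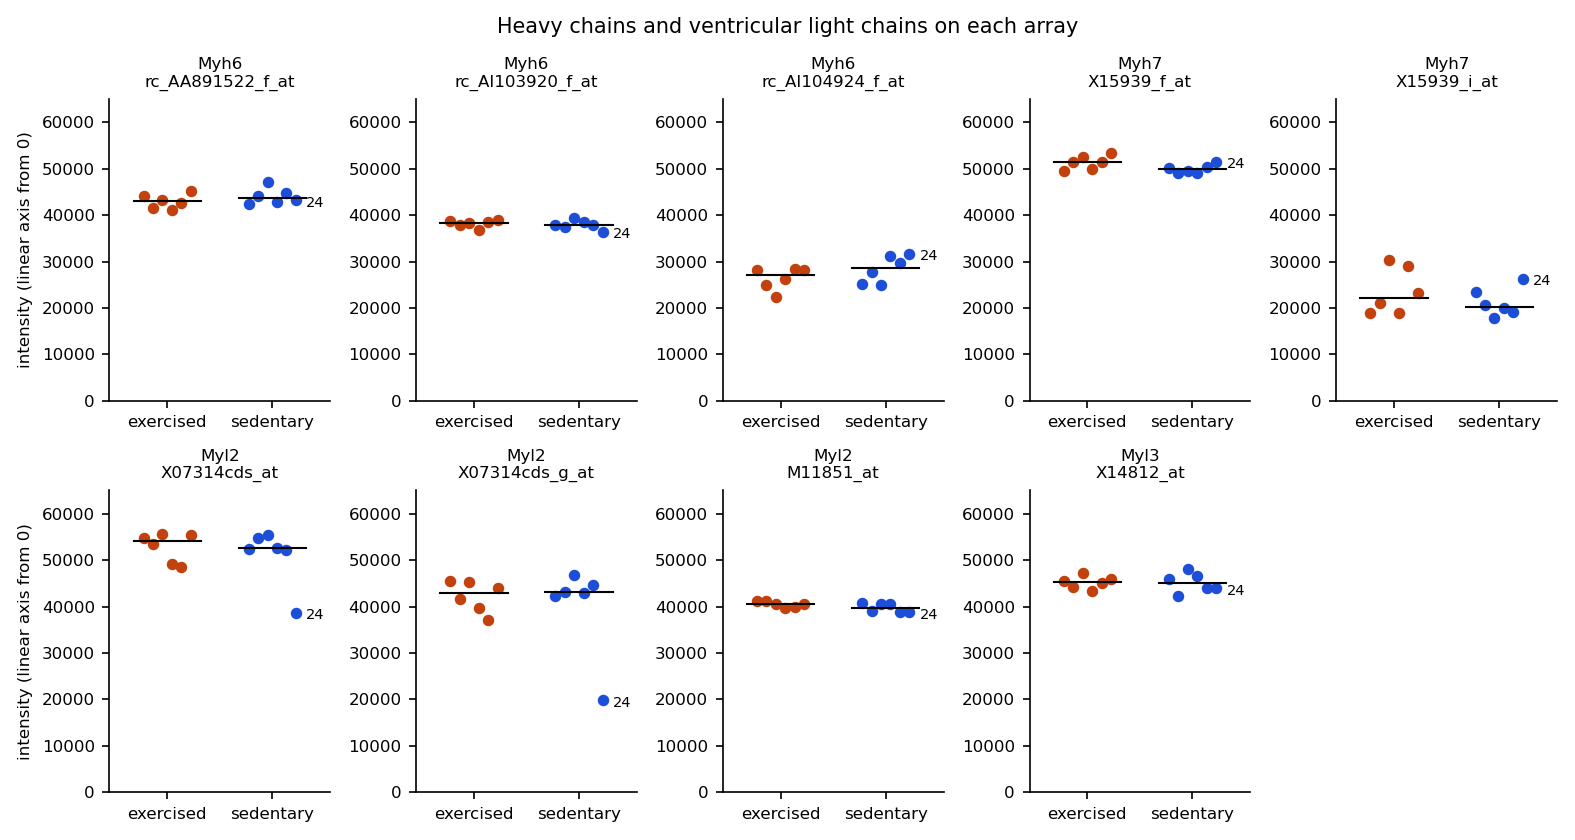
Intensity (linear axis from 0) of the 9 heavy chain and ventricular light chain probe sets, 1 point per array, exercised left and sedentary right, with the group median as a bar. The groups overlap in every panel, and sedentary 24 lies apart on X07314cds_at (38668) and X07314cds_g_at (19784) but not on M11851_at (38743).

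The bright probe sets of the heavy chains and ventricular light chains differed in their spread. Their median within-group SD was 0.06 log2 over 9 probe sets, against 0.09 for the 100 brightest and 0.10 for all that passed the filter, but 4 of the 9 lay above 0.10. These were X07314cds_g_at at 0.34, X15939_i_at at 0.25, X07314cds_at at 0.15 and rc_AI104924_f_at at 0.14. Their median log2 difference was 0.03, against 0.01 for the 100 brightest and 0.00 over all. The leading probe sets of Myh7 and Myl2 ranked 6th and 4th of all 8740 in brightness. How far brightness near the top of the scale compresses differences was not tested.

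Over all 12 arrays the atrial light chains gave the largest log2 differences of the 6 genes, and both moved by more than 1.5 times when sedentary 16 was left out. Myl7, the atrial regulatory light chain, had intensities on rc_AA891242_at of 1330, 1323, 1499, 1334, 1359 and 1473 in exercised 1, 4, 5, 7, 8 and 9, against 1136, 8652, 1228, 1247, 1263 and 1923 in sedentary 13, 16, 17, 21, 23 and 24. All exercised values lay in a narrow band, and the other sedentary arrays but 24 lay just below it. The medians were 1346 in exercised and 1255 in sedentary ventricles, so the medians and the means point opposite ways. The log2 difference of the means was -0.36 ± 0.35 (SE), with an interval of -1.11 to 0.38 and a limma adjusted p of 0.613. Without sedentary 16 it was 0.04 (limma adjusted p = 0.848).

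The second Myl7 probe set, rc_AA891242_g_at, is built on the same sequence record and does not add an independent measurement. It read 639, 744, 783, 678, 705 and 733 on the exercised arrays, against 636, 9112, 619, 659, 712 and 1551 on the sedentary arrays, in the order above. Sedentary 16 was 10.9 times and, on rc_AA891242_at, 6.36 times the mean of the other 5 sedentary arrays. Sedentary 24 was again the next highest. The log2 difference was -0.61 (limma adjusted p = 0.503), and -0.10 without sedentary 16 (limma adjusted p = 0.732).

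Myl4, the atrial essential light chain, showed the same array on top. X51531cds_at read 819, 905, 896, 838, 803 and 834 on exercised 1, 4, 5, 7, 8 and 9, against 847, 2117, 1189, 844, 949 and 1043 on sedentary 13, 16, 17, 21, 23 and 24. All 6 exercised values lay below the sedentary mean, but 2 sedentary arrays lay within the exercised range. The log2 difference was -0.29 ± 0.14 (SE), with an interval of -0.58 to 0.01, a limma unadjusted p of 0.0573, the smallest of the 12, and a limma adjusted p of 0.328.

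Without sedentary 16 the Myl4 difference was smaller but tighter. It was -0.14, with an interval of -0.27 to -0.0024, a limma unadjusted p of 0.0465 and an adjusted p of 0.336. Without sedentary 16 and 17 together it was -0.08, with an interval of -0.18 to 0.02. The dim probe set X51531cds_g_at, below the filter, read 178 to 223 on exercised arrays, against 994 on sedentary 16 and 178 to 277 on the other 5. Its log2 difference was -0.23 (limma adjusted p = 0.526 with no filter), and -0.03 without sedentary 16.

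**Figure D2:**
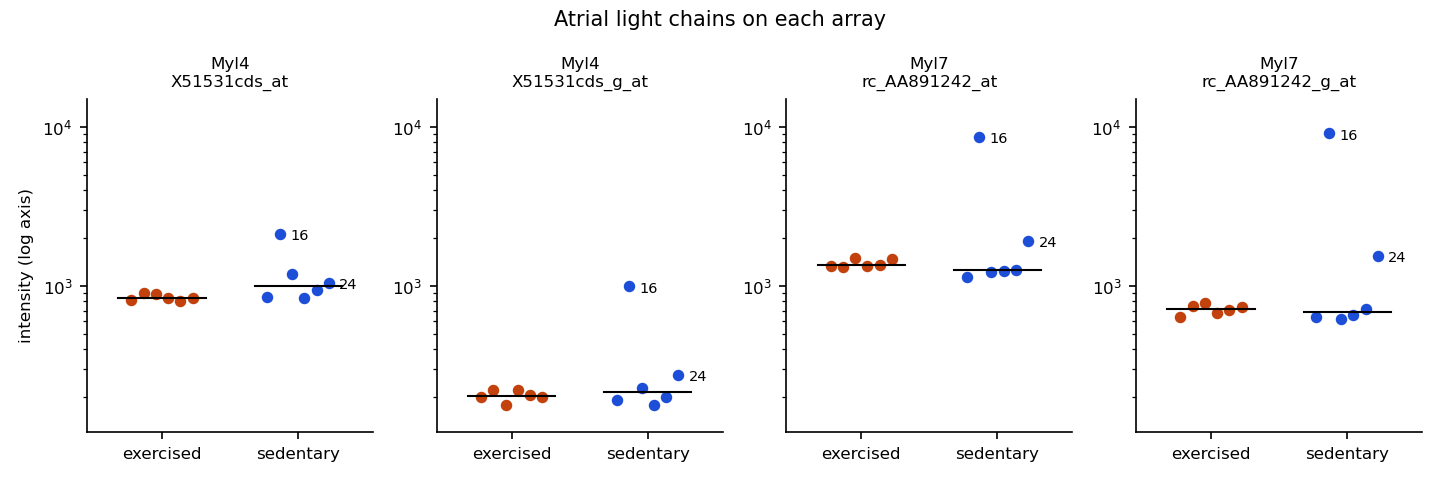
Intensity (log axis) of the 4 atrial light chain probe sets, 1 point per array, exercised left and sedentary right, with the group median as a bar. Sedentary 16 lies above every other array in all 4 panels, from 994 on X51531cds_g_at to 9112 on rc_AA891242_g_at.

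Sedentary 16 differed from the other sedentary arrays at few probe sets besides these. Of the 6555, 6 were more than 1 log2 above the mean of the other 5 sedentary arrays, namely both Myl7 probe sets at 3.04 and 2.41 and the 4 Nppa probe sets at 1.72 to 2.23. The Myl4 probe set came 7th, at 0.90, and the 8th, of the smooth muscle light chain Myl9, stood at 0.55. Nppa encodes atrial natriuretic peptide. On E00903cds_s_at it read 7240 to 23843 in exercised and 5870 to 26157 in sedentary ventricles, highest on exercised 4 and sedentary 16. The log2 difference of this probe set, exercised minus sedentary, was 0.29 ± 0.34 (SE; limma adjusted p = 0.680). Nppa was further above 0 on its 3 dimmer probe sets past the filter, with log2 differences of 0.741, 0.672 and 0.875. On exercised 4, Myl7 was at 1323 on rc_AA891242_at, the lowest of the exercised arrays but close to the 1330 of exercised 1. On rc_AA891242_g_at it was at 744, in the upper part of the exercised range of 639 to 783. Myl4 on X51531cds_at was at 905, the highest of the exercised arrays.

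Besides Nppa, 5 of 13 atrial markers fixed as a list were measured, and their brightest probe sets did not stand out on sedentary 16. There they differed from the mean of the other 5 sedentary arrays by 0.11 log2 for the gap junction gene Gja5, 0.05 for Kcnj3, -0.01 for the peptide-processing enzyme Pam, -0.03 for Kcna5 and -0.17 for Kcnj5. Kcnj3, Kcna5 and Kcnj5 encode potassium channels. Among the other Pam probe sets past the filter, rc_AA799575_i_at was at -0.29 log2. Its 965 on sedentary 16 was the lowest of all arrays. The rest of the Pam probe sets lay between -0.0035 and 0.02, and the other Gja5 probe sets were at -0.05 and -0.01. None of the 6 markers was at 0. The 6 summed to 27069 to 46055 in exercised and 25163 to 45534 in sedentary arrays, and to at most 29014 in sedentary arrays without 16. Nppa alone made up 26157 of the 45534 on sedentary 16 and 23843 of the 46055 on exercised 4. In a whole ventricle, more cells of a type and more RNA per cell cannot be told apart.

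**Figure D3:**
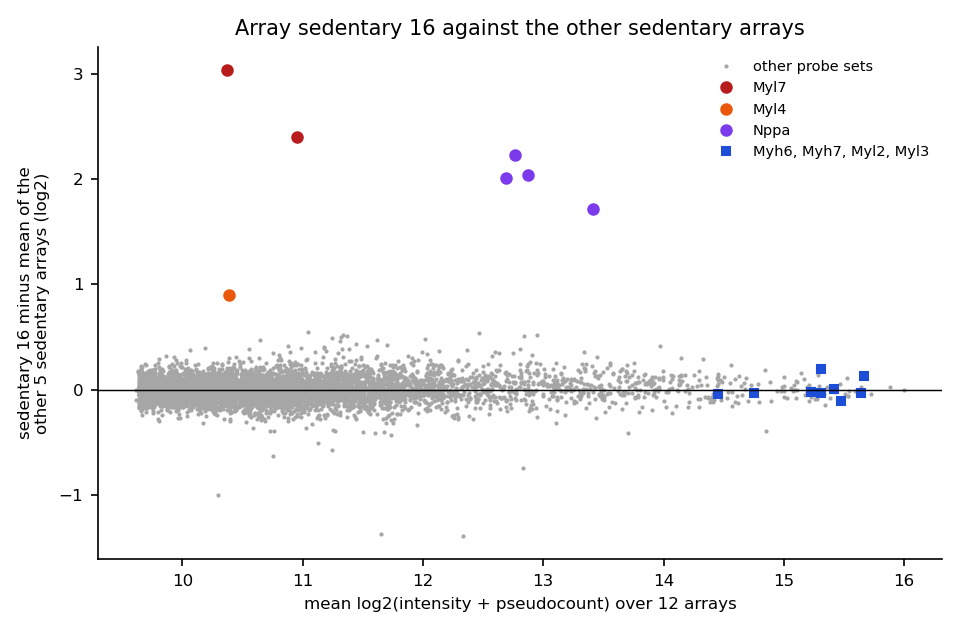
Each of the 6555 probe sets by its mean log2 intensity (x) and by sedentary 16 minus the mean of the other 5 sedentary arrays in log2 (y). The Myl7, Nppa and Myl4 probe sets stand above all others, at 0.90 to 3.04, and the heavy chains and ventricular light chains lie between -0.11 and 0.19.

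**Figure D4:**
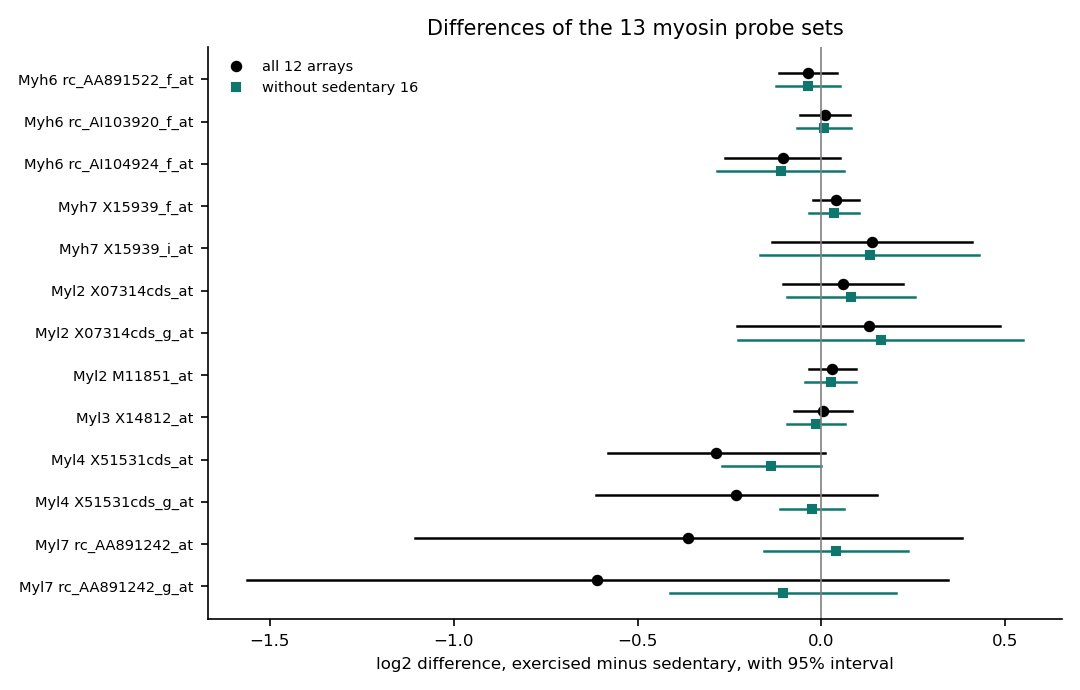
Log2 difference, exercised minus sedentary, with 95% interval, for all 13 probe sets, over all 12 arrays (circles) and without sedentary 16 (squares). The intervals of the heavy and ventricular light chains include 0 both ways. The Myl7 points lie at -0.36 and -0.61 over all arrays and at 0.04 and -0.10 without sedentary 16.

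The isoform ratios were taken per array from the brightest probe set of each gene. The height of such a ratio depends on how strongly each probe set binds, so only its differences between arrays are read. For Myh7 to Myh6 both probe sets end in _f_at, may read both heavy chains and are among the brightest of the array. How far this changes the differences of that ratio was not tested. The Myh7 to Myh6 ratio was 111.8%, 123.9%, 121.4%, 121.4%, 120.6% and 117.9% on exercised 1, 4, 5, 7, 8 and 9, against 118.4%, 111.2%, 105.0%, 114.8%, 112.2% and 119.1% on sedentary 13, 16, 17, 21, 23 and 24. Of the exercised arrays, 4 of 6 lay above every sedentary array, and exercised 1 lay among the lower sedentary arrays.

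The Myh7 to Myh6 ratio averaged 120 ± 4.24% in exercised and 113 ± 5.22% in sedentary ventricles (SD, n = 6 each). The log2 difference was 0.08 ± 0.03 (SE), and an exact two-sided permutation test over all 924 splits gave p = 0.0563, or 0.0844 adjusted over the 3 ratios. It missed the threshold, and it passed without exercised 1, at 0.10 (adjusted exact permutation p = 0.0455). The other 5 pairings of a Myh7 with a Myh6 probe set gave 0.03 to 0.25 log2, all higher in exercised ventricles, with exact permutation p of 0.121 to 0.411. These pairings share probe sets and arrays and are not independent.

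The essential light chain ratio, Myl4 to Myl3, was 1.80%, 2.05%, 1.89%, 1.93%, 1.78% and 1.82% on the exercised arrays, against 1.84%, 5.01%, 2.48%, 1.81%, 2.15% and 2.37% on the sedentary arrays, in the same order. Of the sedentary arrays, 4 of 6 lay above all exercised arrays, and 13 and 21 lay among them. The log2 difference was -0.38 ± 0.22 (SE), with an exact two-sided permutation p of 0.0476, or 0.0844 adjusted over the 3 ratios. Without sedentary 16 it was -0.17 (exact permutation p = 0.0931, adjusted 0.140). With the dim Myl4 probe set X51531cds_g_at the difference was -0.44 (exact permutation p = 0.370), and -0.047 without sedentary 16 (exact permutation p = 0.760).

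The regulatory light chain ratio, Myl7 to Myl2, ran from 2.43% over a median of 2.68% to 2.80% on the exercised arrays. On the sedentary arrays it was 2.17%, 15.8%, 2.21%, 2.37%, 2.42% and 4.97% on 13, 16, 17, 21, 23 and 24. The 2 high sedentary arrays pulled the mean up while the sedentary median, 2.40%, lay below the exercised one. The log2 difference of the means was -0.45 ± 0.47 (SE; exact permutation p = 0.455), and -0.03 without sedentary 16 (exact permutation p = 0.991). The other 5 pairings of a Myl7 with a Myl2 probe set gave -0.85 to -0.43, with exact permutation p of 0.411 to 0.537. On sedentary 24 the ratio joined a Myl7 value of 1923 to the low Myl2 value of 38668.

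**Figure D5:**
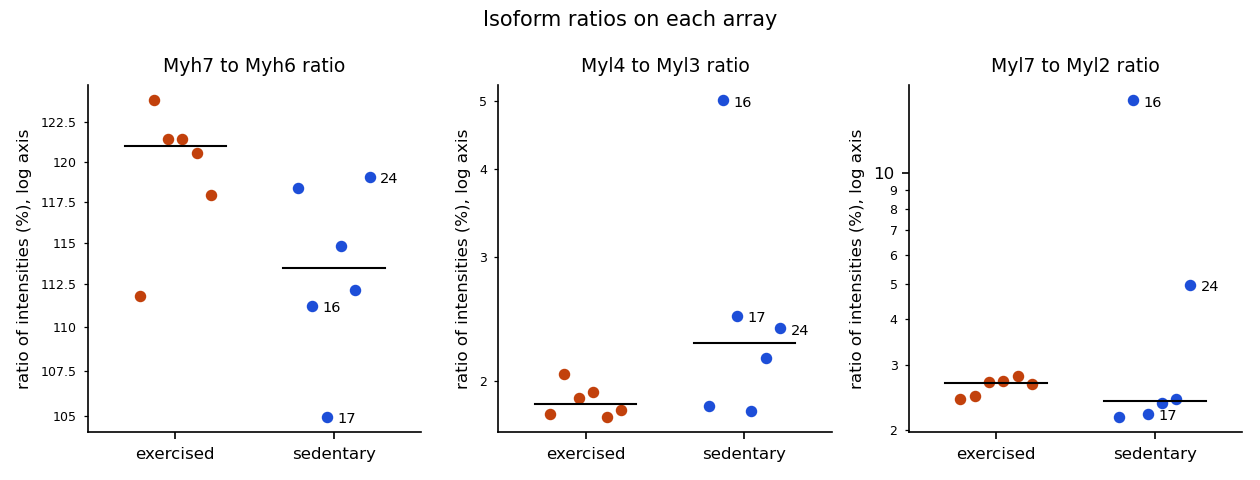
Ratio of the intensities in percent (log axis) for the 3 isoform pairs, 1 point per array, exercised left and sedentary right, with the group median as a bar. Sedentary 16 lies apart for Myl4 to Myl3 (5.01%) and Myl7 to Myl2 (15.8%), and exercised 1 (111.8%) lies below the other exercised arrays for Myh7 to Myh6.

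The likeness among the 6 genes was described by their correlation over the 12 arrays, which share their scaling, with group means removed. Pearson's r between Myl4 and Myl7 was 0.93, with a Spearman rho of 0.44, and r was 0.64 without sedentary 16. Without that array Myl2 and Myl3 had an r of 0.62 and Myh6 and Myl3 one of 0.54, so the atrial pair no longer stood apart. Over all arrays those pairs had 0.37 and 0.44, and the heavy chains 0.18. The genes most like Myh6 were Slc25a4, the mitochondrial adenine nucleotide carrier of heart muscle (r = 0.96), Foxd4 (0.90) and Nrg2 (0.88). The genes most like Myh7 were Ldb3, a Z-disc protein (0.80), Ivns1abp (0.77) and Nsun4 (0.76). Without the 2 arrays where each heavy chain lay farthest from its group mean, these were 0.93, 0.77 and 0.85 for Myh6. For Myh7 they were 0.65, 0.68 and 0.81.

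Among the light chains, Myl2 was most like Ctrc (r = 0.93), Rbm24 (0.91) and Tnk2 (0.90). These fell to 0.68, 0.66 and 0.44 without the arrays where Myl2 lay farthest from its group mean, sedentary 24 and 17. Myl3 was most like Oaz2 (0.91), Mip (0.88) and LOC102549032 (0.88), which were 0.80, 0.83 and 0.86 without its 2 farthest arrays. Myl4 was most like Myl7, Myl9 (0.87) and Nppa (0.83), and Myl7 was most like Myl4, Gcm1 (0.83) and Cspg4 (0.79). Without sedentary 16 the r of Myl4 with Myl9 and Nppa was 0.76 and 0.66, and that of Myl7 with Gcm1 and Cspg4 was 0.61 and 0.64. The genes named for each chain are those of highest r among all measured genes. How high such an r would be by chance was not tested.

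The genes that work with these chains gave 0 calls in 5 lists chosen with earlier results of these data known, taking the brightest probe set of each gene. Of 60 measured genes, 36 lay higher and 24 lower by sign, and their median log2 difference was 0.01, against 0.00 over all 3876 genes, of which 0.413% were called. At an unadjusted p under 0.05, 6 of the 60 were higher and 4 lower, beside 9.21% higher and 6.91% lower over all 3876 genes. All 4 lower genes were in the list of heavy chain regulators and all 6 higher genes in the other 4 lists, and the difference between lists was not tested.

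Of the other myosin chains, 14 of 23 listed were measured, with a median log2 difference of 0.04. Myl6b, a light chain of slow muscle and non-muscle myosin, averaged 1738 ± 178 in exercised and 1398 ± 142 in sedentary ventricles (SD, n = 6 each). All 6 exercised arrays lay above the sedentary mean, and its log2 difference was 0.25 ± 0.07 (SE; limma adjusted p = 0.0920). Myl12a, a regulatory light chain of non-muscle myosin, had a difference of 0.19 (limma adjusted p = 0.199), and its relative Myl12b 0.12 (limma adjusted p = 0.331). The other measured probe set gave -0.003 for Myl12a, so its probe sets did not share the rise, and 0.149 for Myl12b.

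Of the thick filament partners, 8 of 18 were measured, with a median of -0.00072. Mybpc1, slow skeletal myosin binding protein C, averaged 695 ± 59.6 in exercised and 593 ± 31.8 in sedentary ventricles (SD, n = 6 each), a log2 difference of 0.14 (limma adjusted p = 0.108, and 0.0405 with array weights). Trim63, a muscle ubiquitin ligase, had 0.10, and the creatine kinase Ckm -0.07. The titin gene Ttn, at 443 in exercised and 457 in sedentary ventricles, lay just above the filter and had no settled sign.

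Of the thin filament genes, 10 of 16 were measured and 9 lay higher by sign, with a median of 0.07. Skeletal actin Acta1, which the fetal heart also expresses, averaged 12572 ± 5314 in exercised and 7027 ± 1778 in sedentary ventricles (SD, n = 6 each), highest on exercised 5 and 4 at 19463 and 17539. The Acta1 log2 difference was 0.73 ± 0.25 (SE; limma adjusted p = 0.169), and 0.40 without exercised 4 and 5 (limma adjusted p = 0.473). The tropomyosin Tpm2 had 0.26 (limma adjusted p = 0.141) and the thin filament capping protein Tmod1 0.10. Cardiac actin Actc1 and the troponins Tnni3 and Tnnt2, as bright as the heavy chains, had 0.04, 0.02 and 0.01.

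Of the kinases and phosphatases that act on the light chains, 11 of 21 were measured, with a median of -0.0057. The small GTPase gene Rhoa had 0.20 (limma adjusted p = 0.261), the kinase gene Rock1 0.07, and Ppp1ca, a catalytic subunit of protein phosphatase 1, -0.12 (limma adjusted p = 0.422).

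Of the regulators of the heavy chain genes, 17 of 45 were measured, with a median of -0.03. At an unadjusted p under 0.05, 4 of the 17 were lower, Thra, Rxrb, Dio3 and Ncoa1, and 0 higher, beside the 6.91% and 9.21% over all genes in the same order. Thra, the main thyroid hormone receptor of the heart, averaged 2195 ± 210 in exercised and 2584 ± 219 in sedentary ventricles (SD, n = 6 each), with a log2 difference of -0.21 (limma adjusted p = 0.151). Its other measured probe sets gave 0.10 and -0.0072, so the Thra probe sets did not share a direction. The receptor partner Rxrb had -0.14 (limma adjusted p = 0.173), and Dio3, which inactivates thyroid hormone, -0.20 (limma adjusted p = 0.233). Thrb had 0.10 (limma adjusted p = 0.331) and the transcription factor Gata4 0.04, against -0.134 on the other measured Gata4 probe set.

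Markers of other cell types were summed per array. The fibroblast markers, 9 of 10 measured, summed to 54420 to 80994 in exercised and 43031 to 58390 in sedentary arrays. The erythroid markers, 4 of 8, summed to 15178 to 40158 in exercised and 39072 to 44862 in sedentary arrays. Exercised 4 and 5 stood apart in both lists, with the highest fibroblast sums, 80994 and 68368, and the lowest erythroid sums, 21871 and 15178, and they were also the highest for Acta1. No myosin chain probe set was called without these 2 arrays, beside 4 of all probe sets past the filter, or 0.061%. The skeletal markers, 12 of 15, summed to 13065 to 13830 in exercised and 12657 to 14232 in sedentary arrays, and the smooth muscle markers, 4 of 8, to 5549 to 7784 and 4621 to 6516 in the same order. None of these lists had a called gene, and their part in the myosin values was not tested.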

How the data were processed

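Left ventricle RNA was measured on 6 exercised and 6 sedentary arrays, grouped by their titles. The authors deposited 1 linear intensity per probe set and array; the array software, background correction, scaling and genome build were not given in the sources used here. No column of another sample was present, and no batch or date is in the labels. Names came from the platform annotation, which gave 7006 of 8740 probe sets 1 gene, 308 several and 1426 none.

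Values below 0 were set to 0 and log2(intensity + 363) was taken, 363 being the 20th percentile of all values. Probe sets with a mean above the 25th percentile, 434, were kept (6555). limma 3.58.1 in R 4.3.3 fitted the 12 arrays with lmFit and eBayes with a trend. The test was two-sided, Benjamini-Hochberg adjustment ran over the 6555, and calls were made under 0.05. Precision is limited by the number of arrays. Differences are on the log2(intensity + pseudocount) scale, which understates those of dim probe sets. Ratios of untransformed intensities were tested by exact permutation on the log2 scale. For a gene in a list, the probe set with the highest mean was used.

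The text names every myosin chain probe set, in each list the called genes and the 3 of smallest unadjusted p, 12 further genes by name where measured, and the 3 genes most like each member. Ncoa1, Gja5, Kcna5, Kcnj3 and Kcnj5, the genes named for sedentary 16 and sedentary 24 and those in the flagged values fall outside it or were chosen after their values were seen. The members and lists were chosen with earlier results of these data known. The fit was tested on simulated data. The windows around the gene starts came from a RefSeq promoter table of build GRCr8. Alternatives covered the pseudocount, filter, normalization, array weights, trend, threshold and each array left out. Figures were drawn with matplotlib 3.10.9.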

Additional observations from a re-analysis of the deposited data

Results flagged for a closer look

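In 78 groups of 6 arrays, 11 had an array whose gap to the nearest other relative to the group's range exceeded Dixon's 95% critical value for 6 samples, and chance flags about 1 in 20 groups. All 11 were in the sedentary group. Sedentary 16 was the highest on both Myl7 probe sets, at 8652 on rc_AA891242_at (next 1923) and 9112 on rc_AA891242_g_at (next 1551). It was also the highest on both Myl4 probe sets, at 2117 on X51531cds_at (next 1189) and 994 on X51531cds_g_at (next 277), and in the Myl4 to Myl3 ratio, at 5.01% (next 2.48%). These 5 share 1 array, and the probe sets of a gene share 1 sequence record.

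Sedentary 24 was the lowest on the Myl2 probe sets X07314cds_at, at 38668 (next 52093), and X07314cds_g_at, at 19784 (next 42254). It was also the lowest for Rock1, at 577 (next 816). Sedentary 17, the array that stood apart across the whole array, was the lowest for Pam on rc_AA891068_f_at, at 11796 (next 14252), and for Myl12b, at 2419 (next 2844), and the highest for Dio3, at 2456 (next 1824).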

How the results depend on the processing

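No paired analysis was possible because the groups share no replicate number. The 0 calls among the myosin chain probe sets held under all 25 alternatives. Of 301 alternative values of the member probe sets, 11 changed sign and 290 were counted as unchanged. The 290 include an exact permutation test of each of the 13 probe sets. That test used the same log2 values, so its direction was fixed, and its p was not adjusted or held against the threshold. The rest of the 290 kept their direction and their side of the threshold. The count of called probe sets over the whole array was 21, against 32 with no filter, 50 with a filter at the 50th percentile, 42 without the trend, 160 with array weights, 144 at a threshold of 0.10, 4 without exercised 4 and 5, and 5 without sedentary 16 and 17, an alternative added after seeing the data. Leaving out 1 array gave 3 (without sedentary 23) to 37 (without sedentary 13). Among the 60 measured genes of the 5 lists, 1 was called with array weights (Mybpc1, log2 0.15, limma adjusted p 0.0405). At a threshold of 0.10, 1 was called (Myl6b, log2 0.25, limma adjusted p 0.0920), against 0 in the main fit.

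Leaving out 1 array gave the Myh7 to Myh6 ratio 0.054 to 0.095 log2, called without exercised 1 (adjusted exact permutation p = 0.0455). It gave the Myl4 to Myl3 ratio -0.47 to -0.17, called without sedentary 13 (0.0455) and without sedentary 21 (0.0260). The difference of medians turned the Myl7 to Myl2 ratio to 0.16. Signs turned for Myl3 with quantile normalization (-0.0016) and without exercised 4 and 5 (-0.0031), with single arrays left out giving -0.014 to 0.023. The Nppa probe set of smallest difference, E00903cds_s_at, turned from 0.29 to -0.010 without exercised 4 and 5. Single arrays left out gave -0.0027 to 0.021 for Myh6 rc_AI103920_f_at, -0.019 to 0.085 for Myl2 X07314cds_at, -0.061 to 0.18 for X07314cds_g_at and -0.48 to 0.039 for Myl7 rc_AA891242_at, which was 0.014 without sedentary 16 and 17. Ttn turned to 0.022 with a pseudocount of 1, 0.0024 with quantile normalization, 0.081 with array weights, 0.0032 without exercised 4 and 5 and 0.094 without sedentary 16 and 17, and single arrays left out gave -0.10 to 0.057. The cause was not tested.

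All values are relative to the unknown scaling of the arrays, and probe sets near the top of the scale or near the filter bound what can be seen. Filtered at the 50th percentile, or with no filter, dim probe sets enter or leave the adjustment.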

Other observations

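Apart from Myl2, the probe sets lowest on sedentary 24 by the widest gaps were of Col5a1 (570 there, 2417 to 3598 on the other arrays), Mrpl44 (458 there, 1672 to 2184 elsewhere), Mapk8ip1 (249 there, 964 to 1388 elsewhere) and Grip2 (1099 there, 2706 to 3792 elsewhere). Ctrc, whose values were most like those of Myl2, read 1492 on sedentary 24 and 3195 to 3879 on the other arrays.

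The 3 probe sets lowest on sedentary 16 against the other 5 sedentary arrays were the unnamed rc_AA800750_f_at and X62951mRNA_s_at, at -1.39 and -1.37 log2, and that of Kctd13, at 487 against a mean of 1793 over the other 5. Sedentary 17 was the highest of all arrays on 1824 of the 6555 probe sets and the lowest on 1817, and it was the highest on 4 of the 13 myosin probe sets, a share close to that over all probe sets.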
